A study of Macaca mulatta with 13 samples.

Results

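miR-22, an abundant muscle microRNA (miRNA), was followed across small RNA libraries from the thigh muscle vastus lateralis of rhesus monkeys (Macaca mulatta) under caloric restriction, abbreviated CR (8 libraries), or on a control diet (Control, 5 libraries). It was found by its name in the deposited miRNA table, where 1 row of 909 named miRNAs matched. That row names no arm of the hairpin, so the arms could not be compared. The sources used here give neither the degree of restriction nor the ages of the animals. The labels do not state that each library came from a separate animal. The p-values take each library as 1 independent sample, and would not hold as given if libraries shared an animal.

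MicroRNAs are short RNAs that guide the RNA-induced silencing complex to matching sites in messenger RNAs and lower their translation and stability. miR-22 is conserved across vertebrates and is abundant in heart and skeletal muscle. In mouse heart it is known for a role in hypertrophic growth and remodelling, and in mouse and human cells its known targets include the deacetylases SIRT1 and HDAC4. It has also been tied to cell senescence and to lipid metabolism. In the RefSeq gene table for assembly T2T-MMU8v2.0, the name mir-22 is a synonym of TLCD2 on chromosome 16, which lies between PRPF8 and WDR81. The Ensembl identifier of MIR22 is ENSMMUG00000044834. Both miRNAs it is set beside here are muscle miRNAs: miR-133a acts in myoblast growth and differentiation, and miR-378a, which lies within the coactivator gene PPARGC1B in that table, is tied to mitochondrial and lipid metabolism.

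Libraries held 1154326 to 5392611 counts in named miRNAs. Control replicate 4 stood apart from the other libraries. Its skeletal muscle markers, the 7 rows of miR-1, miR-133a, miR-133b and miR-206, all with counts, summed to 13529 CPM, against 39191 to 80928 CPM in the other 12 libraries. CPM are counts scaled to a library of 1000000 named miRNA counts, corrected with TMM factors that ran from 0.624 to 1.76. Most of the muscle sum in Control replicate 4 was miR-133a, at 12641 CPM. miR-206 (569 CPM), miR-133b-3p (289 CPM) and miR-1-3p (28.9 CPM) were also at their lowest there. The 4 fibroblast rows (both arms of miR-199a and miR-214, all with counts) summed to 2048 CPM in this library against 487 to 1636 CPM elsewhere, and the 5 endothelial rows (miR-126, miR-221 and miR-222, all with counts) to 944 against 412 to 779 CPM. Its summed red blood cell (745 CPM), leukocyte (701 CPM) and smooth muscle (29892 CPM) markers lay within the range of the other libraries. Its neuronal markers (5.39 CPM) were the lowest of all libraries. Results that rest on Control replicate 4 are given with and without it.

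miR-22 was among the most counted miRNAs of the muscle. It had 25232 to 80576 counts in a library and took 1.23% ± 0.44 of named miRNA counts in CR (SD, n = 8) and 1.22% ± 0.32 in Control (SD, n = 5). By mean share it ranked 10, and in single libraries its rank ran from 6, in CR replicate 6, to 15, in Control replicate 4. It stood in the top 10 in 9 of 13 libraries. Just above it by mean share were miR-181a-5p (1.70%), known from lymphocytes and muscle differentiation, and miR-191-5p (1.28%), which is expressed in many tissues. Just below were let-7a-5p (1.20%), a growth-repressing miRNA, and miR-27b-3p (0.978%), known in mouse for acting on the myogenic factor Pax3. The shares of miR-191-5p, miR-22 and let-7a-5p lay closer together than the spread of miR-22 between libraries, so their order is not firm. Counts of different miRNAs also reflect ligation and size selection.

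In CR libraries the share of miR-22 ran from 0.917% through a median of 0.995% to 2.19%. In Control replicates 1 to 5 it was 0.958%, 1.56%, 1.45%, 0.822% and 1.32%. The groups overlapped: 7 of 8 CR libraries lay within the Control range, and the exception was CR replicate 1, the highest of all 13 (exact binomial 95% interval 2.16 to 2.21%). The interval in the lowest, Control replicate 4, was 0.814 to 0.830%. Such intervals cover counting error only, since reads copied by PCR are not separate molecules, and the spread between libraries was far wider. The mean share differed by 0.00743 percentage points, CR minus Control (two-sided exact permutation p 0.979, also after Benjamini-Hochberg adjustment over 3 measures; the smallest p this design allows is 0.000777). Without CR replicate 1 the difference was -0.13, and without Control replicate 4 it was -0.0922. With Control replicate 4 left out, CR replicates 3 (0.941%) and 4 (0.917%) also lay below the Control range. Out of the counts left after removing miR-486-5p, which alone took 57.5% of counts on average, miR-22 held 3.04% ± 0.77 in CR (n = 8) and 2.75% ± 0.83 in Control (n = 5; SD).

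**Figure D1:**
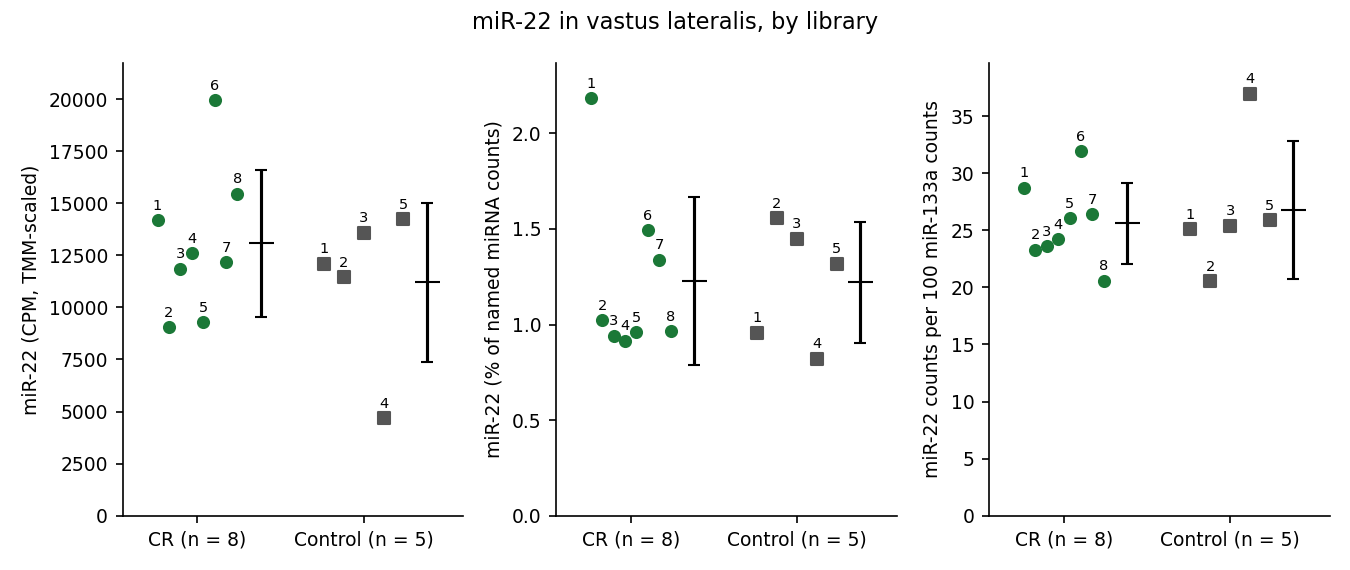
Values of miR-22 in each library, as CPM (left), as percent of named miRNA counts (middle) and per 100 counts of miR-133a (right); circles are the 8 CR and squares the 5 Control libraries, digits are replicate numbers, and bars show mean and SD. The groups overlap in every panel, and Control replicate 4 is lowest in CPM (4670) and highest per 100 counts of miR-133a (36.9).

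Scaled with TMM factors, miR-22 stood at 9063 CPM in the lowest CR library, at a median of 12389 CPM, and at 19940 CPM in the highest. Control replicates 1 to 5 stood at 12093, 11459, 13581, 4670 and 14249 CPM. Of 8 CR libraries 6 lay within the Control range, and CR replicates 6 and 8 lay above it. Control replicate 4 set the low end of that range. With it left out, CR replicates 2 (9063 CPM) and 5 (9297 CPM) lay below the range. The mean was 13072 ± 3524 CPM in CR (n = 8) and 11210 ± 3823 CPM in Control (n = 5; SD), and 6 of 8 CR libraries were above the Control mean. Without Control replicate 4 the Control mean was 12845 ± 1291 CPM (n = 4) and 3 of 8 CR libraries were above it.

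The diet comparison of miR-22 did not pass the test. By edgeR's quasi-likelihood test its log2 fold change, CR against Control, was 0.22 ± 0.26 (SE), with an adjusted p of 0.985. The 95% interval ran from -0.32 to 0.77, or from 0.799-fold to 1.70-fold. The test covered 263 miRNAs, with 0 called at an adjusted p of 0.05 (0% called) and 7 at an unadjusted p under 0.05 (2.66%). DESeq2 and limma-voom also called 0, with 7 each at the unadjusted threshold. Without Control replicate 4 the log2 fold change of miR-22 was 0.0258, without CR replicate 6 it was 0.0977, and with scaling to library totals alone it was 0.00873. That scaling moved the median of all tested miRNAs to -0.26, against 0.0103 with TMM factors.

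**Figure D2:**
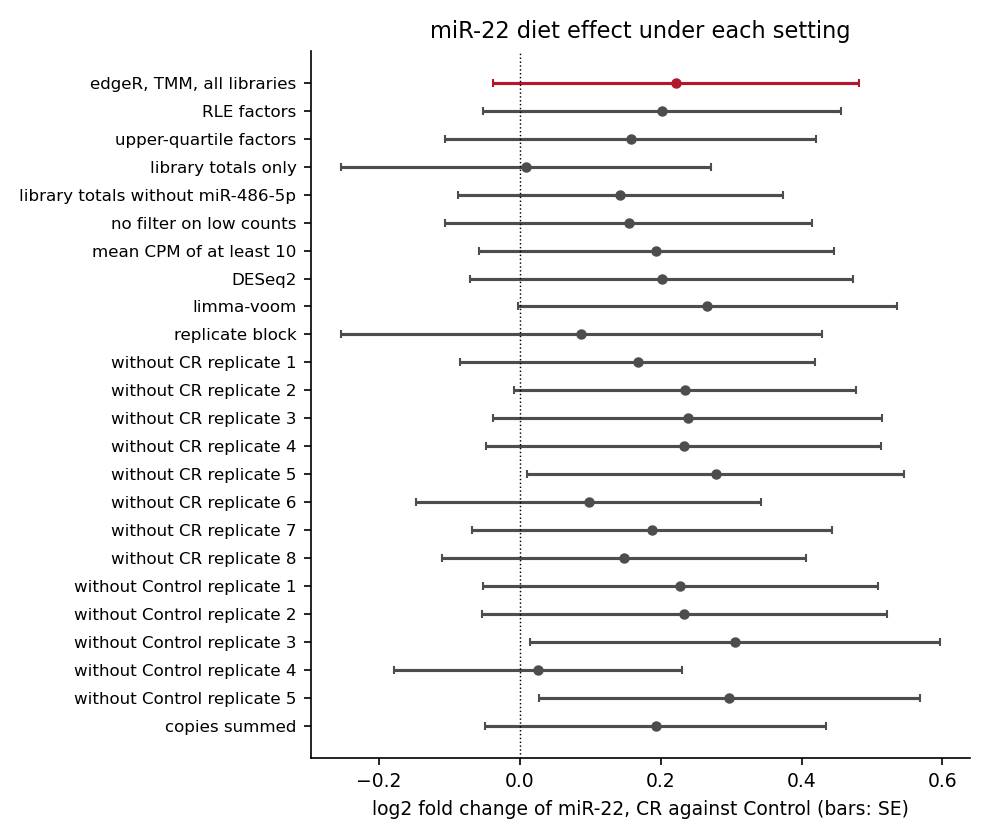
Log2 fold change of miR-22, CR against Control, with its SE, under each alternative for scaling, filter, tool and left-out library. Every estimate lies above 0, from 0.00873 to 0.31, and the nearest to 0 are library totals only and the fit without Control replicate 4.

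In bulk muscle, fewer cells of a type and less RNA per cell cannot be told apart, and miR-22 is not restricted to muscle fibres. Control replicate 4 also held the lowest level of miR-22. Across the 13 libraries the SD of its log2 CPM was 0.50, against a median of 0.47 for the 99 miRNAs with a mean of at least 100 CPM. Leaving that library out gave 0.31 and 0.39, and 27 of the 99 varied less than miR-22. Within CR the SD was 0.37 (n = 8), and within Control it was 0.66 with all 5 libraries and 0.15 without replicate 4.

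miR-22 and miR-133a varied together from library to library. The lowest miR-133a level was that of Control replicate 4, at 12641 CPM, and the others ran from 35674 CPM in CR replicate 5 to 75110 CPM in CR replicate 8. CR replicates 2 and 5, the lowest CR libraries for miR-133a, were also the lowest for miR-22. Over 13 libraries Pearson's r of the log2 CPM was 0.94 (permutation p 0.0001, adjusted over 2 relations 0.0002) and Spearman's rho 0.77 (permutation p 0.00279, adjusted 0.00558). Without the 2 libraries farthest from the median of miR-133a, Control replicate 4 and CR replicate 8, r was 0.85 (permutation p 0.00133). Within the 8 CR libraries it was 0.86 (exact permutation p 0.00831), and the 5 Control libraries are too few for a value of their own. With library totals alone r was 0.87. Both levels in a library share 1 scaling factor, which can make them move together, and the part of this sharing was not tested.

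The ratio of both counts within a library needs no scaling. For every 100 counts of miR-133a there were 20.6 to 31.9 counts of miR-22 in CR libraries, with a median of 25.1. In Control replicates 1 to 5 there were 25.1, 20.6, 25.4, 36.9 and 25.9. All libraries but Control replicate 4 lay between 20.6 and 31.9. The log2 ratio averaged -1.98 ± 0.20 in CR (n = 8) and -1.93 ± 0.31 in Control (n = 5; SD), and the difference was -0.0495 (two-sided exact permutation p 0.727, adjusted over 3 measures 0.979). The Control mean was -2.05 ± 0.16 (n = 4) without Control replicate 4, and the difference was then 0.0734. Counting alone gives a log2 ratio to miR-133a or miR-378a an error of 0.00562 to 0.0103.

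The relation of miR-22 to miR-378a depended on Control replicate 4 and on CR replicate 1. Control replicate 4 held 23007 CPM of miR-378a, and the others held 49083 CPM (CR replicate 1) to 120304 CPM (CR replicate 8). CR replicate 1, the lowest in CR for miR-378a, was the third highest in CR for miR-22. Over 13 libraries r was 0.76 (permutation p 0.0141, adjusted over 2 relations 0.0141) and rho 0.55 (permutation p 0.0555, adjusted 0.0555). Pearson's r was 0.28 without Control replicate 4 (permutation p 0.374), and within CR it was 0.31 (exact permutation p 0.459, n = 8). With library totals alone r was 0.48 (permutation p 0.0947). Without the 2 libraries farthest from the median of miR-378a, Control replicate 4 and CR replicate 1, r was 0.53 (permutation p 0.0963) and rho 0.60 (permutation p 0.0564). Without CR replicate 1 alone, a choice made after seeing the data, r was 0.86 (permutation p 0.00441) and rho 0.69 (permutation p 0.0154). Whether the relation to miR-133a is closer than that to miR-378a was not tested.

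Per 100 counts of miR-378a there were 12.01 to 28.9 counts of miR-22 in CR libraries, with a median of 14.1. In Control replicates 1 to 5 there were 11.0, 14.8, 19.0, 20.3 and 12.96. CR replicates 1 and 6 lay above the Control range and the other 6 CR libraries within it. The log2 ratio averaged -2.66 ± 0.45 in CR (n = 8) and -2.72 ± 0.37 in Control (n = 5; SD), a difference of 0.0619 (two-sided exact permutation p 0.805, adjusted over 3 measures 0.979). It was -0.0615 without CR replicate 1, -0.00750 without CR replicate 6, -0.0550 without Control replicate 1 and 0.17 without Control replicate 4.

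**Figure D3:**
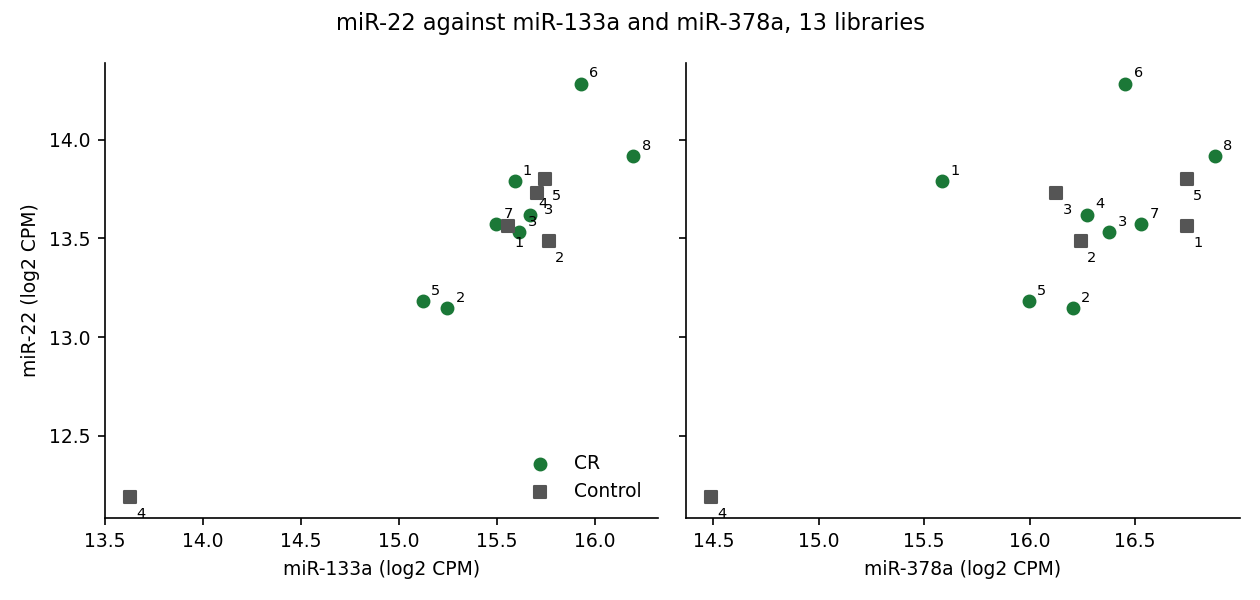
Log2 CPM of miR-22 (vertical) against miR-133a (left) and miR-378a (right) in 8 CR (circles) and 5 Control (squares) libraries; digits are replicate numbers. Points follow a rising line for miR-133a with and without Control replicate 4 (r 0.94 and 0.82), and scatter for miR-378a once that library is left out (r 0.76 and 0.28).

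Besides miR-133a, the miRNAs most like miR-22 over the 13 libraries were miR-133b-3p and 3 members of the miR-30 family. Likeness was Pearson's r of log2 CPM over the 13 libraries among the other 98 miRNAs with a mean of at least 100 CPM, given as a description. After miR-133a came miR-30d-5p (r 0.91), miR-30c-5p (0.90), miR-133b-3p (0.90), a muscle miRNA made beside miR-206, and miR-30a-5p (0.87). The median over the 98 was 0.14, and r was above 0 for 54. Over the other 12 libraries these values were 0.82 for miR-133a, 0.72 for miR-30d-5p, 0.68 for miR-30c-5p, 0.67 for miR-133b-3p and 0.62 for miR-30a-5p, with a median of 0.0160 over the 98. Over those 12 libraries miR-186-5p, named after its values were seen, was at rank 3 with 0.69, and within CR it was at rank 1 with 0.86, just above miR-133a; it ranked 12 with all 13. Other muscle-enriched miRNAs were less like miR-22, as miR-1-3p ranked 17, miR-206 ranked 19 and miR-486-5p ranked 24 over the 13 libraries. Leaving out Control replicate 4, miR-1-3p ranked 24 (r 0.30), miR-206 ranked 47 (0.0369) and miR-486-5p ranked 22 (0.34). The rank of miR-486-3p was 16 with all libraries and 54 (r -0.0113) without that one. miR-378a ranked 14 with all libraries and 27 without Control replicate 4.

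The SD of the log2 ratio to miR-22, a measure that needs no scaling, also put these miRNAs near the top. It was 0.22 for miR-30d-5p, 0.22 for miR-30c-5p, 0.23 for miR-133a, 0.24 for miR-133b-3p and 0.25 for miR-30a-5p, at ranks 1, 2, 3, 4 and 6 of 98, with a median of 0.62 over all. Over the 12 libraries other than Control replicate 4, the smallest was that of miR-133a, at 0.18, and miR-186-5p was at rank 3 with 0.23. That of miR-133a was also the smallest within CR, at 0.20, where miR-186-5p came next at 0.21. For miR-378a the SD was 0.40, at rank 17. The miR-30 and miR-133 families have members that differ by few bases, and the sources used here do not say how reads were divided among them.

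**Figure D4:**
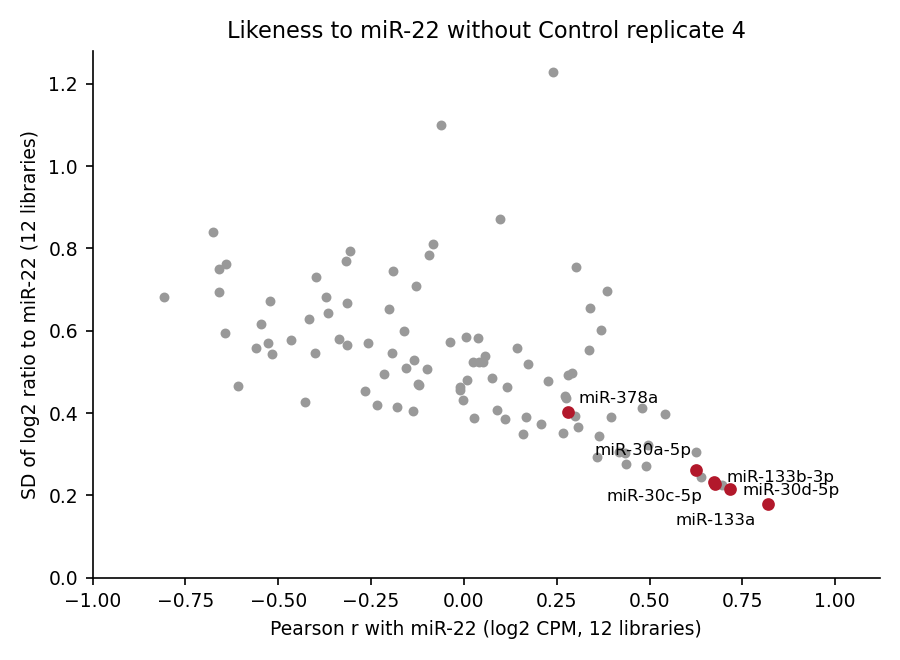
Each of 98 abundant miRNAs by its Pearson r with miR-22 (horizontal, log2 CPM) and by the SD of its log2 ratio to miR-22 (vertical), over the 12 libraries other than Control replicate 4. Red points are miR-378a and the miRNAs most like miR-22; miR-133a lies at the lower right (r 0.82, SD 0.18).

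Other muscle-enriched miRNAs had fitted levels on the same side as miR-22. With TMM factors all 10 tested of 15 listed rows (miR-22 and miR-378a included) had a fitted log2 fold change above 0, with a median of 0.31, where 51.7% of all tested miRNAs did and the median was 0.0103. None passed the test. Upper-quartile factors gave 9 of 10, against 44.1% of all tested miRNAs, and library totals 8 of 10, against 17.9%. Leaving out Control replicate 4 gave 6 of 10, with a median of 0.0984, against 56.7% and 0.0604 over all tested miRNAs. The log2 fold change of miR-133b-3p was 0.20 ± 0.27 (SE), with 959 ± 181 CPM in CR (n = 8) and 836 ± 329 CPM in Control (n = 5; SD; edgeR adjusted p 0.985), and that of miR-1-3p, which promotes muscle differentiation, was 0.91 ± 0.45 (adjusted p 0.985). Markers of most other cell types lay on the other side of 0 with all libraries, and none passed the test. Fitted levels were higher in CR for 0 of 4 tested fibroblast rows (median -0.42), 0 of 3 smooth muscle rows (-0.0870), 1 of 4 endothelial rows (-0.20) and 1 of 5 leukocyte rows (-0.22), and the 1 tested red blood cell row stood at -0.16. They were higher for 3 of 3 neuronal rows (0.61). Leaving out Control replicate 4 gave 0 of 4 fibroblast rows (-0.0939), 1 of 3 smooth muscle rows (-0.0230), 2 of 4 endothelial rows (0.00476), 2 of 5 leukocyte rows (-0.0396) and 2 of 3 neuronal rows (0.29). The part of these cells in the levels of miR-22 and the muscle-enriched miRNAs was not tested.

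Rows listed by the names of miRNAs known from human or mouse cells to act on SIRT1, as miR-22 does, had fitted levels on both sides. The list took in both arms of miR-181a and of miR-199a. It may therefore hold arms that are not known to act on SIRT1. Of 8 tested rows, miR-22 included, 5 were fitted higher and 3 lower in CR, where 51.7% of all tested miRNAs were higher. The median of the 8 was 0.0662, against 0.0103 over all tested miRNAs, and edgeR called 0. In this list miR-181a-5p stood at -0.00414 ± 0.18 (SE). With library totals alone 2 of 8 were higher, where 17.9% of all tested miRNAs were.

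**Figure D5:**
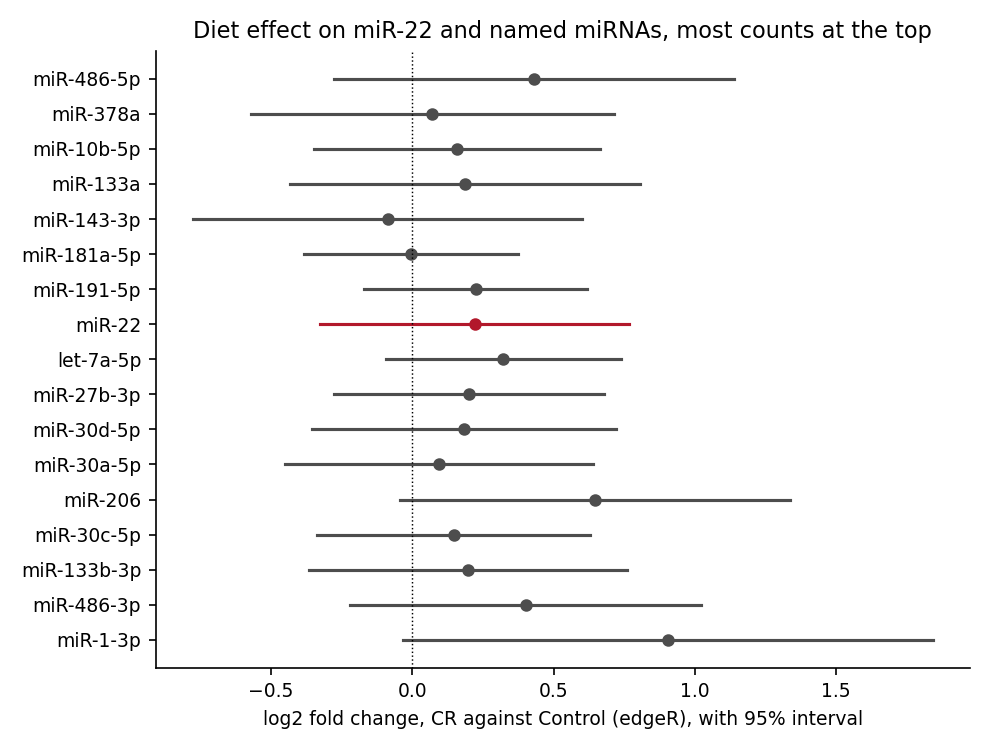
Log2 fold change, CR against Control, with its 95% interval by edgeR for miR-22 (red) and the other 16 named miRNAs, ordered by mean share of counts from the top. The intervals of all 17 include 0.

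Markers of other cells were set beside miR-22 in both diets, as summed CPM. The 2 red blood cell rows (miR-451 and miR-144) ran from 135 to 1510 CPM in CR and from 138 to 1386 CPM in Control, and the 7 leukocyte rows from 278 to 790 CPM and from 333 to 701 CPM. The 4 smooth muscle rows (miR-143 and miR-145) ran from 13393 to 45620 CPM in CR and from 10985 to 42294 CPM in Control, and skeletal muscle markers from 39191 to 80928 CPM and from 13529 to 58676 CPM. Fibroblast rows ran from 487 to 1636 CPM and from 718 to 2048 CPM, and endothelial rows from 412 to 779 CPM and from 488 to 944 CPM. The 8 neuronal rows summed to 9.71 to 130 CPM in CR and 5.39 to 79.6 CPM in Control, and 3 of them, miR-124a-5p, miR-9-3p and miR-9-3-3p, were at 0 in all libraries. These ranges overlapped between the diets. With all libraries the fitted levels within each list lay mostly on 1 side, but that side differed between lists, as given above. Of the skeletal muscle rows 4 of 4 tested were fitted higher in CR (median 0.42), against 51.7% of all tested miRNAs (0.0103). Without Control replicate 4 it was 2 of 4 (0.20), against 56.7% (0.0604).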

How the data were processed

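Small RNA from vastus lateralis biopsies of 8 CR and 5 Control rhesus samples was measured. Trizol-extracted RNA was size-selected on a gel and made into TruSeq small RNA libraries, per the labels' protocols. Per the submitters' processing notes the genome build was Mmul_8.0.1, and for the aligner and counting tool the sources used here give no name. Values in the deposited table are raw counts per miRNA and library, judged from whole numbers with unequal totals.

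For each of 67 names listed more than once the highest-total row was used, and 3 pairs of rows that differed in at most 1% of counts were merged, miR-133c-3p into miR-133a among them. This left 909 named miRNAs; 702 predicted loci named by position were left out. Counts were tested with edgeR 4.0.16 in R 4.3.3 (quasi-likelihood, robust, TMM factors, filterByExpr), with Benjamini-Hochberg adjustment over 263 miRNAs and a threshold of 0.05. Intervals are estimate and SE with the fit's degrees of freedom. Log2 CPM and log2 ratios used a prior count of 2. Ratios and shares were compared over the 1287 splits of 13 libraries into 8 and 5, and correlations with 100000 resamples, or all pairings for 8 libraries. Alternatives were DESeq2 1.42.0, limma-voom (limma 3.58.1), other scalings and filters, summed copies, a block and left-out libraries. The scripts were tested on simulated data. The closest libraries of a group differed by a chi-square of 149 per degree of freedom, and each library was counted as 1 sample.

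Named miRNAs are miR-22, miR-133a, miR-378a, muscle-enriched miRNAs that averaged at least 100 CPM, the 5 with the most counts, the 2 above and 2 below miR-22 in mean share, and the 5 most like it. The members and lists were chosen with earlier results of these data known. A list of miRNAs grouped by another shared target is not reported here.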

Additional observations from a re-analysis of the deposited data

Results flagged for a closer look

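In 34 groups of values (17 measures in each diet), the gap between the most extreme library and its nearest neighbour was large against the group's range in 6, by Dixon's 95% criterion. Chance flags about 1 group in 20, and the measures overlap. Among Control libraries, miR-22 was low in replicate 4, at 12.2 log2 CPM against 13.5 to 13.8 in the others. On the CPM scale (4670 against 11459 to 14249 CPM) this library was not flagged. Nor was it flagged for the share of miR-22 or its ratio to miR-133a. miR-133a was low there, at 12641 CPM against 48164 to 55758. So was the sum of skeletal muscle markers, which is mostly miR-133a, at 13529 CPM against 52283 to 58676. Among CR libraries, the share of counts in miR-22 was high in replicate 1, at 2.19% against 0.917 to 1.49%. Summed neuronal markers were high in CR replicate 4, at 130 CPM against 9.71 to 38.9, and in Control replicate 1, at 79.6 CPM against 5.39 to 24.6.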

How the results depend on the processing

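Over 23 alternatives the log2 fold change of miR-22 ran from 0.00873 to 0.31 and its adjusted p from 0.858 to 1.00. The fitted direction was kept in these 23, no setting passed the threshold, and 0 miRNAs were called in each. None of them combined library totals with leaving out Control replicate 4. Leaving out that library put the mean log2 CPM of Control (13.644, n = 4) just above that of CR (13.631, n = 8). The difference in share changed sign in 6 settings and kept it in 10. A higher level of miR-22 in CR is therefore not a firm direction. The count at an unadjusted p under 0.05 was 28 of 612 with no filter, 2 of 182 at a mean of at least 10 CPM, 12 with library totals alone and 2 to 14 with single libraries left out. Same-numbered CR and Control libraries did not deviate together (r from -0.24 to -0.0474 over 5 pairs), so the numbers were not taken as pairs; with the replicate block miR-22 was at 0.0875 and 2 miRNAs had an unadjusted p under 0.05. The arms of miR-22 could not be compared, since 1 row names neither.

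With single libraries left out, the difference in share ran from -0.13 to 0.0916 (-0.0446 without both Control replicate 4 and miR-486-5p), the log2 ratio to miR-133a from -0.14 to 0.0734, and that to miR-378a from -0.0615 to 0.17. The r of miR-22 with miR-133a ran from 0.81 to 0.96 and passed in every alternative run. That with miR-378a ran from -0.12 (without Control replicate 4, library totals without miR-486-5p, and 0.33 with library totals; chosen after seeing the data, as were all correlations without a single library) to 0.86. It did not pass with library totals (0.48), library totals without miR-486-5p (0.59), without the farthest libraries (0.53) or within CR (0.31).

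Of 368 values for the other 16 named miRNAs, 24 had the opposite sign and none passed. With library totals these were miR-133a (-0.0435), miR-378a (-0.13), miR-10b-5p (-0.19), miR-191-5p (-0.12), miR-30d-5p (-0.0256), miR-30c-5p (-0.0302) and miR-30a-5p (-0.0451); with upper-quartile factors miR-378a (-0.00275); with limma-voom miR-181a-5p (0.0201); with the replicate block miR-378a (-0.00876), miR-143-3p (0.0295) and miR-181a-5p (0.0632). With single libraries left out the ranges were -0.0508 to 0.28 (miR-133a), -0.16 to 0.20 (miR-378a), -0.0201 to 0.31 (miR-133b-3p), -0.29 to 0.11 (miR-143-3p), -0.11 to 0.0138 (miR-181a-5p), -0.0339 to 0.28 (miR-30d-5p), -0.0403 to 0.21 (miR-30c-5p) and -0.11 to 0.31 (miR-30a-5p). The cause was not tested. miR-22 had at least 25232 counts in every library, so counting error was small beside the spread between libraries.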
